A study of Mus musculus with 6 samples.

Results

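Txnip, Arrdc4 and Arrdc3, which encode 3 alpha-arrestins, and Mlx, Mlxip and Mlxipl were followed in cultured mouse neural progenitor cells. Mlxip and Mlxipl encode glucose-sensing transcription factors that, with their shared partner encoded by Mlx, act on Txnip and Arrdc4. The 6 genes were taken by symbol, matched to their Entrez identifiers, from 17254 gene identifiers in the deposited tables. Of the 6, 5 passed the filter on low counts that left 12813 genes for testing, and Mlxipl did not. The list was made with the levels and fold changes of these same comparisons known, so the genes count as selected on those values, which are given as a description with no p-value.

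RNA was sequenced from 6 libraries in 3 groups of 2. They were cells given PQ for 48 h, cells given NAC for 48 h and control cells. All were kept in N2 medium with EGF and bFGF, and the labels give no dose, strain, age or spelled-out name for either agent. The labels do not say whether a group's 2 libraries are separate cultures, so p-values measure a spread that may be technical, and more RNA per cell cannot be told apart from more cells of a type in these bulk cultures. Summed expected counts ran from 9680436 to 10698241 per library. Of 10 neural stem cell markers 10 had counts, and their summed level was 7380 to 7570 CPM (counts scaled to library size) with PQ, 5420 to 5500 with NAC and 7100 to 7190 in control. The 5 astrocyte markers summed to 66.1 to 68.4 CPM with PQ, 94.5 to 96.6 with NAC and 53.4 to 57.5 in control. The 6 endothelial markers, with Cldn5 at 0 throughout and Cdh5 at 0 in control, summed to 107 to 124 CPM with PQ, 85.9 to 106 with NAC and 81.9 to 86.9 in control. Fibroblast and pericyte markers, 6 in number, summed to 4.27 to 8.74 CPM with PQ, 4.63 to 4.65 with NAC and 1.97 to 2.43 in control, with Pdgfrb and Lum at 0 in NAC and control. The 8 microglia and blood cell markers summed to 8.08 to 8.53 CPM with PQ, 9.31 to 11 with NAC and 5.56 to 5.71 in control. Of these Hbb-bs was at 0 throughout, Tmem119 and C1qa with PQ, Csf1r, Ptprc and C1qa with NAC, and Aif1 and Tmem119 in control. Neuron markers (7, Rbfox3 at 0) summed to 184 to 194 CPM with PQ, 320 to 360 with NAC and 199 to 209 in control, of which Map2 alone made 98.2% with PQ, 99.4% with NAC and 97.3% in control. Another neuron marker, Tubb3, was lower in both treated groups, at a mean of 1.03 CPM with PQ, 0.674 with NAC and 3.29 in control, and the median log2 fold change of the 3 tested neuron markers was -1.32 in NAC against control. Flt1 made at least 98.5% of the endothelial sums and Cnp at least 97% of those of the oligodendrocyte markers, and Slc1a2 made 71.7%, 67.8% and 74.5% of the astrocyte sums with PQ, with NAC and in control. Oligodendrocyte markers (6, Mog and Mag at 0 throughout and Sox10 at 0 with PQ and in control) summed to 152 to 158 CPM with PQ, 134 to 155 with NAC and 134 to 149 in control. Some of these sums move with the groups, those of the neural stem cell and astrocyte markers among them. The range with NAC overlapped both other groups for oligodendrocyte markers, control for endothelial markers, and PQ for fibroblast and pericyte markers. The part of the marker sums in the results that follow was not tested.

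TXNIP, the thioredoxin-interacting protein, binds reduced thioredoxin and inhibits it, and it also brings glucose transporters of the cell surface to endocytosis. Its gene is among the most glucose-responsive genes known. Glucose 6-phosphate moves MLXIP (MondoA) or MLXIPL (ChREBP), each paired with its partner MLX, to a carbohydrate response element in the promoter, and Arrdc4 is the other classical target of the same factors. ARRDC3 and ARRDC4 are alpha-arrestins like TXNIP: adaptors that carry arrestin folds and recruit ubiquitin ligases of the NEDD4 family to membrane proteins.

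The bases before the annotated starts of Txnip and Arrdc4 are shown because these are the members on which the factors act directly. They are the 250 bases upstream of each RefSeq start in build GRCm38.p6, 5′ to 3′ on the strand of the gene, and the capitals mark motif matches described after them. The Txnip stretch is chr3:96557707-96557956 on the plus strand, and the Arrdc4 stretch is chr7:68749239-68749488 on the minus strand.
Txnip: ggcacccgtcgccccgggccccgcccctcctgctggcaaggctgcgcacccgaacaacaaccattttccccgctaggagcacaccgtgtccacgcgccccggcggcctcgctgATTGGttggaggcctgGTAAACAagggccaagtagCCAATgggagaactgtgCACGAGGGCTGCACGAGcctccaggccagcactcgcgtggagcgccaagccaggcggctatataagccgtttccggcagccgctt
Arrdc4: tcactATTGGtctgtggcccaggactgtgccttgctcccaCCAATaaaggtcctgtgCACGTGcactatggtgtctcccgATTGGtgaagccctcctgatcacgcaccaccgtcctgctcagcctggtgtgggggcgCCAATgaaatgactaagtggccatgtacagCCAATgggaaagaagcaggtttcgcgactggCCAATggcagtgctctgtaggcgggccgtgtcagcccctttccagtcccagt

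Both strands were searched for 4 motifs. The carbohydrate response element was written as CACGNG, any 5 bases and CACGNG again, and it can overlap the plain E-box CACGTG. Txnip held a match, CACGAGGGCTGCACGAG, from 85 to 69 bases before its start (chr3:96557872-96557888). Such a match stood in 15 of the 32851 stretches of the same length that RefSeq's promoters give, 0.0457%. Among 19 other genes described as Mondo or ChREBP targets that had such a stretch, 0 held a match. The letters as written here therefore do not pick out those targets. Txnip also held 2 CCAAT boxes, the motif of the factor NF-Y, and 1 forkhead motif GTAAACA. At least 1 CCAAT box stood in 33.8% of all stretches, and at least 1 forkhead motif in 3.17%. Of 10218 tested genes with such a stretch, 41.1% held a CCAAT box, 2.66% a forkhead motif and 9.89% an E-box. Arrdc4 had 6 CCAAT boxes and 1 E-box and no match to the full element, Mlx and the upstream Mlxipl start had 1 E-box each, and 6.02% of all stretches held an E-box. Arrdc3 and Mlxip had no match to the element or to an E-box in these windows. A match describes letters and is no shown binding site, and no match says only that the letters are not in this window.

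**Figure D1:**
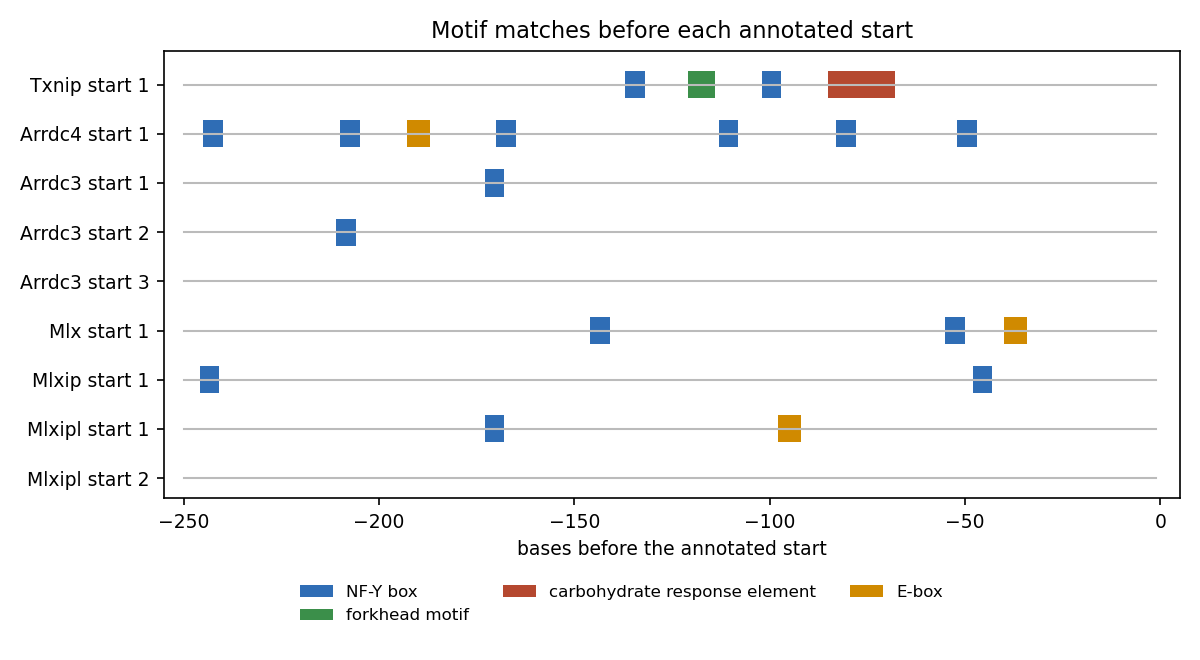
Motif matches in the 250 bases before each annotated start of the 6 genes, with distance to the start in bases on the horizontal axis and 1 line per start. The NF-Y box is the CCAAT motif, and the match to the carbohydrate response element as written in the text is on the Txnip line.

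Txnip was far lower with PQ than in either other group. It had 2.29 and 2.09 CPM in the PQ libraries, 19.5 and 21.1 CPM in the NAC libraries and 12.9 and 19.2 CPM in the control libraries. These rest on 22 and 22 counts with PQ, 210 and 213 with NAC and 128 and 185 in control. Exact Poisson intervals at 95%, which cover counting error alone, reached from 1.31 to 3.47 CPM over the PQ libraries, and the lowest bound elsewhere was 10.8 CPM. Both PQ libraries therefore lay far under all others, while the NAC libraries lay just over the higher control library. Between the control libraries the intervals, 10.8 to 15.4 and 16.6 to 22.2 CPM, did not overlap.

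The log2 fold change of Txnip was -2.87 ± 0.24 (SE) in PQ against control, a 7.31-fold difference, and -3.21 ± 0.24 in PQ against NAC, a 9.22-fold difference. Of the 12813 tested genes 6 had a lower log2 fold change than Txnip in PQ against control and 13 in PQ against NAC. In NAC against control the value was 0.34 ± 0.17. That value rests on the control libraries: it was 0.65 without control replicate 2 and 0.08 without control replicate 1.

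Txnip (chromosome 3, 96557957 to 96561857 in GRCm38) shares 606 exonic bases, 19.4% of its own, with Gm15441 on the opposite strand. Gm15441, a noncoding gene with 36.2% of its exonic bases in the overlap, was at 0.728 and 0.57 CPM with PQ, 3.61 and 2.97 CPM with NAC and 2.83 and 2.39 CPM in control. Its log2 fold change was -1.99 ± 0.43 in PQ against control, in the same direction as Txnip, and the edgeR adjusted p was 0.059 without PQ replicate 2. Whether counting used the strand is not given in the sources used here, so reads in the shared bases cannot be told apart.

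Arrdc4, the other classical MondoA target, was highest with NAC. It had 24.1 and 25.5 CPM with PQ, 40.3 and 45.5 CPM with NAC and 26.2 and 29.8 CPM in control. The NAC libraries were the highest, and PQ and control lay next to each other without overlap. The log2 fold change was 0.62 ± 0.12 in NAC against control, 1.53-fold, -0.79 ± 0.13 in PQ against NAC and -0.17 ± 0.13 in PQ against control. Leaving out any 1 library kept the NAC against control value between 0.53 and 0.72 and the PQ against NAC value between -0.88 and -0.70.

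The table of Arrdc4 also lists a transcript length that varies between libraries. It was 3903 bases in PQ replicate 1 and both NAC libraries, 3461 in PQ replicate 2, and 3346 and 3495 in control, over 2 transcripts of the gene. FPKM, a level per length, was 6.1 and 7.41 with PQ, 10.35 and 11.82 with NAC and 7.67 and 8.29 in control. On log2(FPKM + 0.1) the NAC against control difference of Arrdc4 was 0.47.

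Set per length against Arrdc4, Txnip stood at an FPKM ratio of 0.133 and 0.101 with PQ, 0.675 and 0.648 with NAC, and 0.592 and 0.807 in control. Both PQ libraries were far under all others in this ratio, and the control libraries lay on either side of the NAC values.

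Arrdc3, a regulator of adrenergic receptor trafficking, had the highest FPKM of the 3 arrestin genes in every library. It had 113 and 78.9 CPM with PQ, 62.4 and 70 CPM with NAC and 100 and 85.2 CPM in control. The NAC libraries were the lowest, and the PQ libraries lay on either side of control. Its log2 fold change was -0.49 ± 0.14 in NAC against control and 0.54 ± 0.14 in PQ against NAC. Without control replicate 1 the NAC against control value was -0.36, and without PQ replicate 1 the PQ against NAC value was 0.25. In PQ against control the value was 0.05 ± 0.14, and it changed sign to -0.23 without PQ replicate 1 and to -0.06 without control replicate 2.

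**Figure D2:**
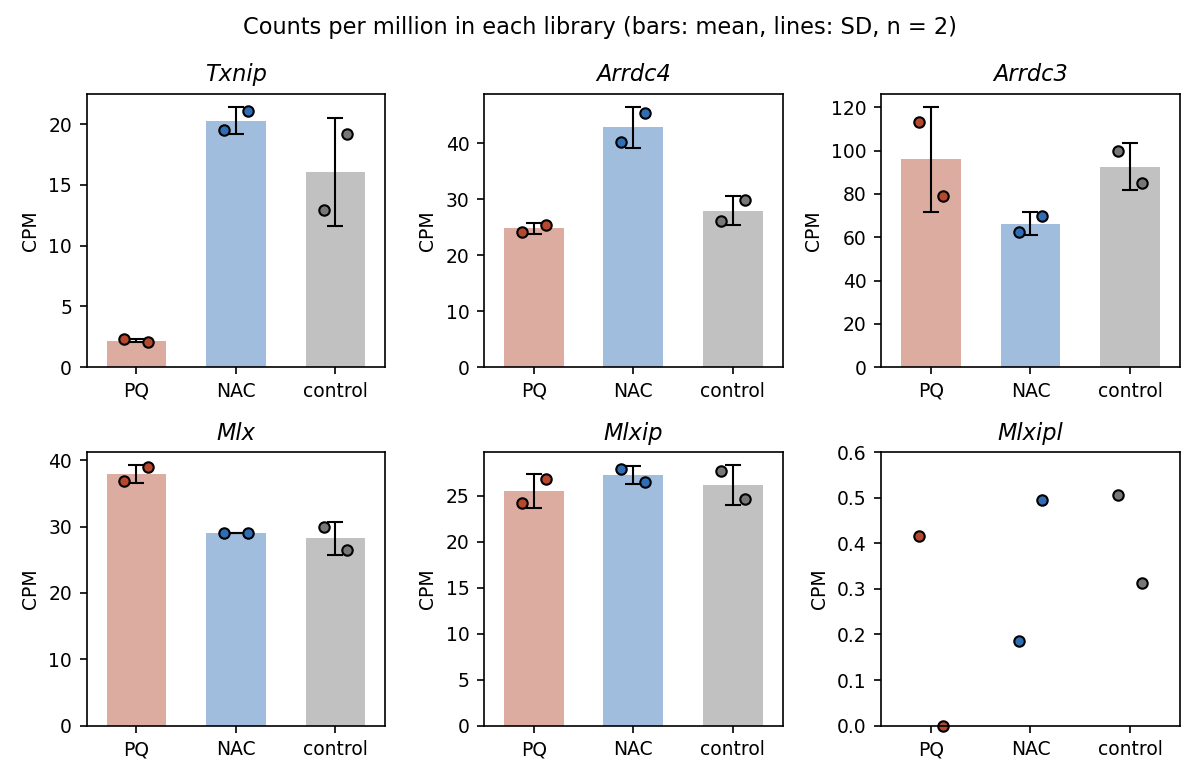
CPM of each gene in every library of PQ, NAC and control, with bars for the mean and lines for the SD of 2 libraries (points alone for Mlxipl). Txnip is lowest in both PQ libraries, Arrdc4 highest and Arrdc3 lowest in both NAC libraries, and Mlx highest in both PQ libraries.

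Mlx, the shared partner without which the Mondo factors do not bind DNA, was higher with PQ. It had 36.9 and 38.9 CPM with PQ, 29 and 29 CPM with NAC and 29.9 and 26.5 CPM in control. The PQ libraries were over all others, and the NAC values lay between those of control. The log2 fold change was 0.43 ± 0.12 in PQ against control, 0.39 ± 0.12 in PQ against NAC and 0.04 ± 0.12 in NAC against control, the last -0.04 without control replicate 2. Leaving out any 1 library kept the PQ against control value between 0.34 and 0.52 and the PQ against NAC value between 0.35 and 0.42.

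Mlx shares 385 exonic bases, 19.3% of its own, with Psmc3ip on the opposite strand, a gene of meiotic recombination. Psmc3ip had 39.6 and 38.6 CPM with PQ, 32 and 27.7 CPM with NAC and 34.9 and 43.6 CPM in control. Its log2 fold change was -0.00 ± 0.13 in PQ against control, -0.39 ± 0.13 in NAC against control and 0.39 ± 0.13 in PQ against NAC, against 0.43, 0.04 and 0.39 for Mlx. In NAC against control its edgeR adjusted p was 0.063 to 0.36 without any 1 library other than control replicate 1, and in PQ against NAC its edgeR adjusted p was 0.1 to 0.22 without PQ replicate 1, PQ replicate 2 or NAC replicate 2.

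Mlxip, which encodes MondoA, did not differ between the groups beyond its spread. It had 24.2 and 26.8 CPM with PQ, 27.9 and 26.5 CPM with NAC and 27.7 and 24.6 CPM in control, and all 3 ranges overlapped. Its log2 fold changes were -0.03 ± 0.13 in PQ against control, 0.06 ± 0.13 in NAC against control and -0.09 ± 0.13 in PQ against NAC. The sign of the first turned without control replicate 1 (0.05) or PQ replicate 1 (0.04), and that of the second without control replicate 2 (-0.02).

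Mlxipl, which encodes ChREBP, the glucose-responsive factor best known from liver and fat, was at the edge of detection. It had 4 and 0 counts with PQ, 2 and 5 with NAC and 5 and 3 in control, at most 0.505 CPM. In PQ replicate 2, the library with 0 counts, the exact 95% Poisson interval reached 0.355 CPM, and the simpler floor of 3 counts stands at 0.289 CPM. Tested without a filter, its log2 fold change was -0.99 ± 1.15 in PQ against control, so no difference was detectable at this depth.

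**Figure D3:**
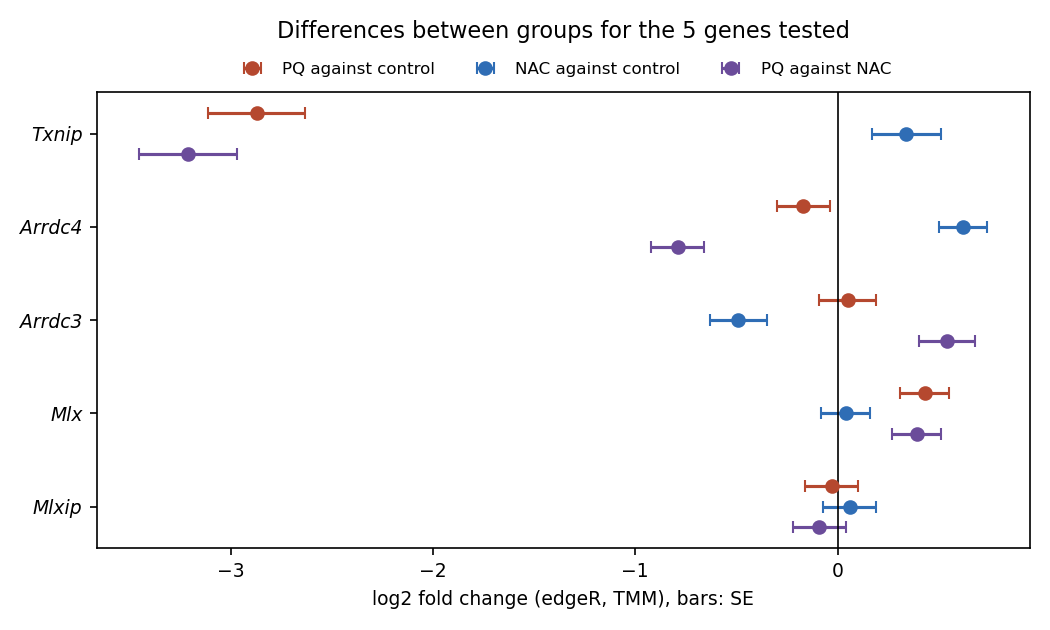
Log2 fold change (horizontal axis) with its SE for the 5 tested genes in 3 comparisons of groups, PQ with control, NAC with control and PQ with NAC. Txnip lies at -2.87 and -3.21 in the comparisons with PQ on top, and all other points lie within 1 of 0.

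At an adjusted p under 0.05 in edgeR, the threshold used for all genes, 1 of the 5 tested genes was higher and 1 lower in PQ against control, where 9.07% and 8.8% of all tested genes were (17.9% together). In NAC against control 1 was higher and 1 lower, against 8.65% and 9.26% of all genes (17.9% together). In PQ against NAC 2 were higher and 2 lower, against 15.5% and 15.1% (30.6% together). The libraries of the groups did not overlap for 3 of the 5 in PQ against control, 3 in NAC against control and 4 in PQ against NAC, against 57.2%, 56.6% and 66% of all tested genes. Because the genes were chosen with these comparisons known, nothing is read from the counts, and the comparisons share libraries. Which libraries the counts rest on is given with the alternatives.

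Levels between genes were compared as FPKM. With PQ, Arrdc3 averaged 23.3 ± 5.59 (SD, n = 2 for each mean) and Mlx 20.4 ± 1.12, which did not differ beyond their spread. Arrdc4 followed at 6.75 ± 0.926, Mlxip at 4.9 ± 0.438, Txnip at 0.78 ± 0.0424 and Mlxipl, with 0 in PQ replicate 2, at 0.11 in PQ replicate 1. With NAC the order was Arrdc3 at 16.3 ± 1.45 and Mlx at 15.7 ± 0.113, again within their spread, then Arrdc4 at 11.1 ± 1.04, Txnip at 7.33 ± 0.474 and Mlxip at 5.05 ± 0.0849. In control Arrdc3 had 22 ± 2.67, Mlx 15 ± 1.34 and Arrdc4 7.98 ± 0.438, and Txnip (5.62 ± 1.52) and Mlxip (5.03 ± 0.573) did not differ beyond their spread. Txnip thus stood next to Mlxip in control, over it with NAC and well under it with PQ. The FPKM ratio of Mlx to its partner Mlxip was 4.28 and 4.08 with PQ, 3.06 and 3.17 with NAC and 2.93 and 3.03 in control.

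**Figure D4:**
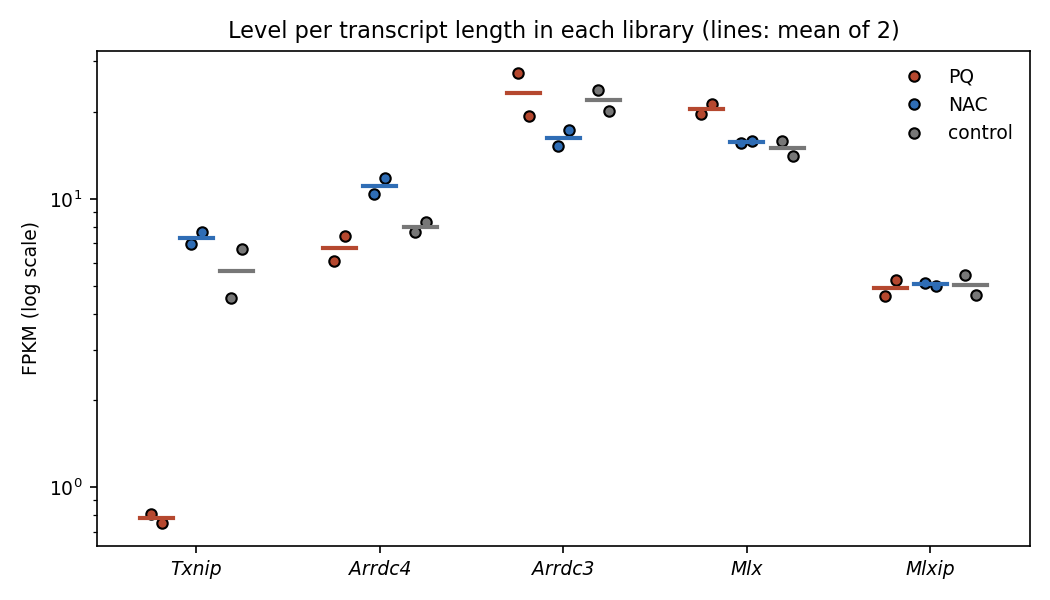
FPKM on a log axis for the 5 tested genes in each library of PQ, NAC and control, with short lines for the mean of 2 libraries. Txnip with PQ lies near 0.78, under every other point.

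Among 600 other genes of at least 5 CPM whose group means span at least 1 on the log2 scale, the profile most like Txnip over the 6 libraries was that of Jade1, a chromatin reader of histone acetyltransferase complexes (Pearson r = 0.995). Neat1, the noncoding RNA of nuclear paraspeckles (0.994), Racgap1 of cytokinesis (0.993), Kif15, a spindle motor (0.992), and Aspm of the spindle poles (0.987) were also among the most alike. Their log2 fold changes in PQ against control, from -1.23 for Neat1 to -0.90 for Aspm, were smaller in size than that of Txnip. The profile most like Arrdc4 was Papln (0.988), an extracellular matrix gene, then Prss35 (0.987), Fbn2 of microfibrils (0.984), S100a16 (0.982), Chn2 (0.978) and Igsf10 (0.977). The r of Arrdc4 with Txnip was 0.74 and that of Mlx with Txnip -0.97. The points share libraries and fall in groups, so these are descriptions.

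The wider pathway was described by 10 lists, each read against the share of all genes called. The lists were chosen with earlier results of these data known, so their calls and adjusted p-values are a description. That share was 9.07% higher and 8.8% lower in PQ against control, 8.65% higher and 9.26% lower in NAC against control, and 15.5% higher and 15.1% lower in PQ against NAC. The median log2 fold change over all genes was 0.00 in each comparison to 2 decimals. Glucose uptake and glucose 6-phosphate genes, whose products make and use the metabolite that the Mondo factors sense, were in large part lower with NAC. Of 20 tested members 12 fell and 0 rose in NAC against control (median -0.50), where 9.26% of all genes fell, and in PQ against control 2 fell and 1 rose (median -0.03). The 12 included Pfkp, a phosphofructokinase (-1.16 ± 0.10), the neuronal type glucose transporter Slc2a3 (-1.31 ± 0.13), the hexokinase Hk2 and Gpi1 (-0.79 ± 0.11), which takes glucose 6-phosphate into glycolysis. Hk2 had 42.4 and 53 CPM with NAC against 95.7 and 95.1 CPM in control. Slc2a3 had 208 and 267 CPM with NAC against 655 and 520 CPM in control. Slc2a1, the transporter that TXNIP removes from the surface, fell by 0.63 ± 0.12 in NAC against control, with 242 and 320 CPM with NAC against 467 and 401 CPM in control. With PQ Slc2a1 was at 460 and 424 CPM. These 5 NAC calls held without any 1 library, as did 7 of the 12 in all. In PQ against NAC 10 members rose and 0 fell (median 0.47), where 15.5% of all genes rose. Without NAC replicate 1 the calls of H6pd and Hk2 ended. That of H6pd also ended without PQ replicate 2, and that of Hk2 without PQ replicate 1. The Pgm2 call ended without PQ replicate 1, PQ replicate 2 or NAC replicate 2. In PQ against control Hk2 also fell (-0.60 ± 0.11). In the same comparison Pfkl fell (-0.35 ± 0.11) and G6pdx, which starts the pentose phosphate pathway, rose (0.31 ± 0.09), and the Pfkl and G6pdx calls ended without PQ replicate 1 or 2, and also without control replicate 1 for Pfkl (edgeR adjusted p 0.15 to 0.29) or control replicate 2 for G6pdx (0.11 to 0.15).

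Other genes described as Mondo or ChREBP targets moved in both directions. Of 21 tested members 2 rose and 3 fell in PQ against control (median 0.05), where 9.07% and 8.8% of all genes did. Rgs16, a regulator of G protein signalling (0.97 ± 0.11), and Thrsp, a lipogenic gene (0.71 ± 0.18), rose. Klf10, a glucose-induced transcription factor (-0.61 ± 0.11), Hk2 and the fatty acid synthesis enzyme Acaca (-0.33 ± 0.10) fell. Without PQ replicate 2 the edgeR adjusted p was 0.13 for Thrsp, 0.054 for Klf10 and 0.28 for Acaca, which had 0.16 without control replicate 1. Klf10 had 175 and 131 CPM with PQ, 263 and 264 CPM with NAC and 240 and 227 CPM in control. Its PQ libraries lay under both other groups. In NAC against control 1 member rose, Gpd1 (0.53 ± 0.12), which makes glycerol 3-phosphate, and 6 fell (median -0.21). Among those that fell were Hk2, the desaturase Scd1 (-0.71 ± 0.10), Ppp1r3b, which targets a phosphatase to glycogen (-1.02 ± 0.17), and the clock-linked repressor Bhlhe41 (-0.84 ± 0.16). Between PQ and NAC 9 rose and 2 fell, Klf10 and Mid1ip1 (median 0.25), where 15.5% and 15.1% of all genes did, and 5 rose without NAC replicate 1. The Mid1ip1 call ended without PQ replicate 1 (edgeR adjusted p 0.085).

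Apart from Txnip, 8 tested genes held a match to the letters of the carbohydrate response element before their start, which is no shown binding site. In PQ against control 1 of them was higher, Man2b2, a lysosomal mannosidase (0.46 ± 0.13), and 1 lower, 9230116N13Rik (-1.42 ± 0.47), where 17.9% of all tested genes were called. The Man2b2 call ended without PQ replicate 2 (0.27, edgeR adjusted p 0.33), and that of 9230116N13Rik without any 1 library other than NAC replicate 1 (0.052 to 0.28). In NAC against control 0 of the 8 passed the adjusted threshold in edgeR, with 0 at an unadjusted p under 0.05, 0 by DESeq2 and 0 by limma on FPKM. In PQ against NAC 1 was higher, Man2b2 (0.42 ± 0.13), and 1 lower, A430005L14Rik (-0.53 ± 0.15), where 30.6% of all tested genes were called. Both calls ended without PQ replicate 2 (Man2b2 0.24, A430005L14Rik -0.56) or NAC replicate 1 (0.35 and -0.49). That of A430005L14Rik also ended without PQ replicate 1 (-0.51).

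**Figure D5:**
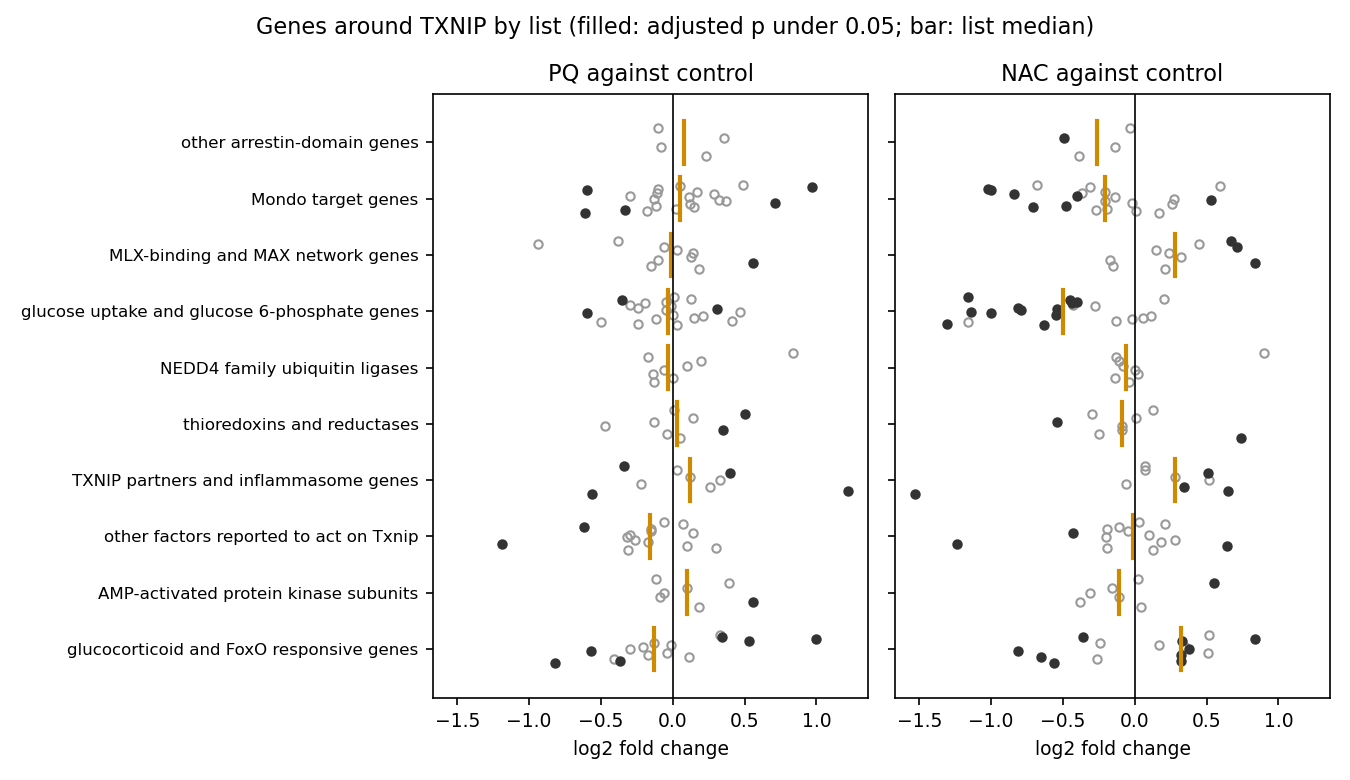
Log2 fold change of each tested gene of the 10 lists in PQ against control and NAC against control, with filled points for an adjusted p under 0.05 and a bar for the median of the list. The glucose uptake list lies to the left in NAC against control, with a median of -0.50, and near 0 in PQ against control.

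MLX also pairs with repressors of the MAX network, which compete for the same sites. The list read here held these and other genes of that network. Myc, Mycn and Mycl are among the others and are not such repressors. Of 10 tested members 1 rose and 0 fell in PQ against control and 3 rose and 0 fell in NAC against control (medians -0.01 and 0.28), where 9.07% and 8.65% of all genes rose. Mxd4, an MLX-binding repressor, rose in both (0.56 ± 0.19 with PQ and 0.84 ± 0.18 with NAC), and Myc (0.71 ± 0.10) and Mycl (0.67 ± 0.22) rose with NAC. The Mxd4 call ended with PQ without control replicate 2, PQ replicate 1 or PQ replicate 2 (edgeR adjusted p 0.11 to 0.29) and with NAC without NAC replicate 2 (0.056). That of Mycl ended without control replicate 2, NAC replicate 1 or NAC replicate 2 (0.092 to 0.32), and its log2 value was 1.06 without control replicate 1. Myc had 136 and 140 CPM with NAC and 89.9 and 78.8 CPM in control. Between PQ and NAC 3 members fell, Myc, Mycl and Mycn, and 0 rose (15.1% of all genes fell), and the Mycn call ended without PQ replicate 1 (edgeR adjusted p 0.08) or NAC replicate 1 (0.054).

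Of 4 other tested arrestin-domain genes 0 passed edgeR's adjusted threshold in PQ against control, with 1 at an unadjusted p under 0.05 (Arrb1, 0.36 ± 0.12, adjusted p 0.051), 0 by DESeq2 and 0 by limma on FPKM. Arrb1 passed as higher in edgeR with library size alone, with DESeq2 size factors, with a robust fit, with no filter, and without control replicate 1, NAC replicate 1 or NAC replicate 2. It was also the 1 member that rose in PQ against NAC (0.85 ± 0.13). Arrb1, which encodes beta-arrestin 1, fell with NAC (-0.49 ± 0.13). It had 29.9 and 37.2 CPM with NAC against 52 and 42.1 CPM in control, and the edgeR adjusted p was 0.12 without control replicate 1 and 0.19 without NAC replicate 1. Arrdc1 and Arrdc2, the closest relatives in the list, were below 10 CPM in all 6 libraries. Of the 8 tested NEDD4 family ubiquitin ligases, which the alpha-arrestins recruit, 0 passed edgeR's adjusted threshold in either comparison with control (medians -0.03 and -0.06), with 1 at an unadjusted p under 0.05 in each (Hecw2), 0 by DESeq2 and 0 by limma on FPKM. Smurf1 rose in PQ against NAC (0.30 ± 0.10). The Smurf1 call ended without PQ replicate 1, PQ replicate 2 or NAC replicate 1 (edgeR adjusted p 0.12 to 0.26).

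On the thioredoxin side, of 8 tested genes 2 rose and 0 fell with PQ, and 1 rose and 1 fell with NAC, where 17.9% of all genes were called in each comparison. Set against NAC, PQ cells had 2 that rose, Nxn (0.80 ± 0.14) and Txnrd1 (0.44 ± 0.09), and Txn1 fell (-0.69 ± 0.09), where 30.6% of all genes were called. Txn1, the cytosolic thioredoxin that TXNIP inhibits, was at 173 and 167 CPM with PQ, 267 and 280 CPM with NAC and 163 and 166 CPM in control. It rose in NAC against control (0.74 ± 0.09, edgeR adjusted p = 1.3e-05). The reductase Txnrd1 (0.35 ± 0.09) and nucleoredoxin, Nxn (0.50 ± 0.14), rose with PQ, and Txnrd3 fell with NAC (-0.54 ± 0.18). The Txnrd1 call ended without PQ replicate 1 (edgeR adjusted p 0.05) or PQ replicate 2 (0.13) and that of Nxn also without control replicate 2 (0.06 to 0.16 over the 3). That of Txnrd3 ended without any 1 library (0.06 to 0.22).

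Among 9 tested partners of TXNIP and inflammasome genes 2 rose and 2 fell with PQ, and 3 rose and 1 fell with NAC, where 17.9% of all genes were called in each comparison. Ddit4 (0.97 ± 0.13) and Casp1 (0.57 ± 0.19) rose and Kpna2 fell (-0.41 ± 0.09) in PQ against NAC, where 30.6% of all genes were called, and the calls of Casp1 (edgeR adjusted p 0.15) and Kpna2 (0.063) ended without PQ replicate 2, that of Casp1 also without PQ replicate 1 (0.073) or NAC replicate 2 (0.18). Ddit4, whose product REDD1 forms a complex with TXNIP, fell by 0.56 ± 0.12 with PQ and by 1.53 ± 0.13 with NAC, and had 130 and 108 CPM with PQ, 51.8 and 69.4 CPM with NAC and 185 and 165 CPM in control. Casp1, the inflammasome protease, rose with PQ (1.22 ± 0.21) and with NAC (0.65 ± 0.22). Map3k5, a kinase that thioredoxin holds inactive, rose with PQ (0.40 ± 0.13) and with NAC (0.51 ± 0.13). Kpna2, an importin, fell with PQ (-0.34 ± 0.09), and Cops5, a signalosome subunit, rose with NAC (0.34 ± 0.10). In PQ against control the calls of Ddit4 (edgeR adjusted p 0.11), Kpna2 (0.23) and Map3k5 (0.11) ended without PQ replicate 2, that of Kpna2 also without control replicate 2 (0.098), and that of Map3k5 without any other library (0.056 to 0.24). With NAC the call of Map3k5 ended without NAC replicate 1 (0.1), that of Cops5 without control replicate 2 (0.12) or NAC replicate 2 (0.18), and that of Casp1 without any 1 library other than control replicate 1 (0.055 to 0.26).

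Other factors reported to act on Txnip include the FoxO factors and NF-Y, whose motifs stand in its promoter as printed, and the histone methyltransferase EZH2. Of 14 tested genes 0 rose and 2 fell in PQ against control, Ezh2 (-0.62 ± 0.10) and Foxo6 (-1.19 ± 0.39), where 17.9% of all genes were called. Hif1a (0.57 ± 0.10) and Foxo3 (0.49 ± 0.14) rose in PQ against NAC and 6 members fell (median -0.13), where 15.5% of all genes rose and 15.1% fell. Among the 6 were Ezh2 (-0.51 ± 0.10), the NF-Y subunits Nfya (-0.53 ± 0.11) and Nfyc (-0.40 ± 0.10), and Foxo4 (-0.54 ± 0.13). The calls of Foxo3, Foxo4 and Nfyc ended without PQ replicate 1 (edgeR adjusted p 0.053 to 0.07), that of Foxo3 also without PQ replicate 2 (0.052) or NAC replicate 1 (0.13), and that of Foxo4 without NAC replicate 2 (0.08). With NAC Foxo4 rose (0.64 ± 0.13) and Hif1a (-0.43 ± 0.10) and Foxo6 (-1.24 ± 0.39) fell, relative to control. The Foxo6 call ended with PQ without any 1 control or PQ library (edgeR adjusted p 0.096 to 0.21) and with NAC without either control library or NAC replicate 1 (0.084 to 0.32), and its NAC value was -1.86 without NAC replicate 2. That of Hif1a ended without control replicate 2 (0.099) or NAC replicate 2 (0.078). Of 7 tested subunits and the activating kinase of AMPK, which marks TXNIP for degradation, Prkaa2 rose with PQ (0.56 ± 0.14) and Prkag2 with NAC (0.55 ± 0.14), and Prkaa2 rose in PQ against NAC (0.95 ± 0.15), with 0 others called where 17.9%, 17.9% and 30.6% of all genes were. The calls against control ended without PQ replicate 2 (0.12) and without NAC replicate 1 (0.097).

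Of 15 tested genes that respond to glucocorticoids or FoxO factors, both reported inducers of Txnip, 3 rose and 3 fell with PQ (median -0.13), where 9.07% of all genes rose and 8.8% fell, and 5 rose and 4 fell with NAC (median 0.32), where 8.65% rose and 9.26% fell. Between PQ and NAC 2 rose, Sgk1 (0.76 ± 0.10) and Cited2 (0.69 ± 0.10), and 4 fell, Fkbp5 (-0.68 ± 0.09), Irs2 (-0.68 ± 0.12), Klf9 (-0.49 ± 0.11) and Sesn1 (-0.56 ± 0.13), the last not past the threshold without PQ replicate 2 (edgeR adjusted p 0.065). With PQ Fbxo32 (1.00 ± 0.18), Trib1 (0.53 ± 0.10) and Cited2 (0.34 ± 0.10) rose, and Tsc22d3 (-0.82 ± 0.16), Ccng2 (-0.57 ± 0.12) and Fkbp5 (-0.37 ± 0.09) fell. Without PQ replicate 2 the edgeR adjusted p was 0.13 for Ccng2, 0.17 for Fkbp5 and 0.19 for Cited2, and the Cited2 call also ended without PQ replicate 1 (0.089) or control replicate 1 (0.098). With NAC Fbxo32 (0.84 ± 0.18), Trib1 (0.33 ± 0.10), Fkbp5 (0.32 ± 0.09), Irs2 (0.38 ± 0.12) and Klf9 (0.32 ± 0.10) rose. Sgk1 (-0.65 ± 0.10), Ccng2 (-0.81 ± 0.13), Tsc22d3 (-0.56 ± 0.16) and Cited2 (-0.36 ± 0.10) fell with NAC. Without control replicate 2 or NAC replicate 2 the calls of Trib1, Fkbp5, Irs2, Klf9, Tsc22d3 and Cited2 ended (0.051 to 0.3), and those of Fkbp5, Klf9, Tsc22d3 and Cited2 also without NAC replicate 1 (0.056 to 0.081). Those of Fkbp5 and Klf9 ended without control replicate 1 as well (0.065 and 0.052), and that of Klf9 without either PQ library (0.062 and 0.065).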

How the data were processed

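The deposited tables, 1 per library, hold an expected count, an FPKM value and a transcript length per gene, per the file headers. Expected counts are estimates, of which 20.88% to 21.38% in a library are not whole. Per the submitters' processing notes, which give no roles, the tools were RSEM, Bowtie2 2.2.5 and HISAT2 2.0.4 on build mm10. A gene not listed in a table was set to 0. Of 17254 identifiers 17199 carried a symbol in RefSeq's GRCm38 table, and the other 55 held 0.0724% to 0.0789% of counts.

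Expected counts were rounded and tested in edgeR 4.0.16 (R 4.3.3) by the quasi-likelihood test, all 6 libraries in 1 model of 3 group means (3 residual degrees of freedom), after filterByExpr (minimum count 10, total 15) and TMM scaling, with Benjamini-Hochberg adjustment over 12813 genes and a threshold of 0.05. CPM uses TMM-scaled library sizes. The SE of a log2 fold change is its size over the square root of F. The fit was tested on simulated data. Alternatives used DESeq2 1.42.0 and, on log2(FPKM + 0.1) and log2(FPKM + 1), limma 3.58.1, and 1 chosen after seeing the data added the title number sets as a term. Leaving out 1 library leaves a group with a lone library, which is assumed to vary like the others.

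The members and gene lists were chosen with earlier results of these data known. List genes past the threshold are named where 5 or fewer moved in a direction, otherwise up to 4 with the smallest p; in PQ against NAC those of the glucose uptake and Mondo target lists that rose are given as counts. Slc2a1, Arrdc1, Arrdc2, Gm15441 and Psmc3ip were named after their values were seen. Promoter sequences are RefSeq's (GRCm38.p6), found for 6 of 6 genes, and overlaps use GENCODE M21. One of the genes most like Txnip is not reported here.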

Additional observations from a re-analysis of the deposited data

How the results depend on the processing

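The genes followed here were selected with their values in these comparisons known. Whether they pass the threshold in refits of the same libraries, here and below, is therefore a description and no independent evidence. The Txnip difference in PQ against control kept its direction under every alternative run, and its side of the threshold in those with all libraries. It ran from -3.13 to -2.56 without 1 library and stood at -1.87 on log2(FPKM + 1), which shrinks low values. The Txnip difference in PQ against NAC kept its direction and side of the threshold in the same runs (-3.27 to -3.14 without 1 library). Without 1 library Txnip in NAC against control ran from 0.08 to 0.65, Arrdc4 from -0.27 to -0.08, 0.53 to 0.72 and -0.88 to -0.70 (PQ with control, NAC with control, PQ with NAC, in this order also for the next genes), Arrdc3 from -0.23 to 0.29, -0.59 to -0.36 and 0.25 to 0.78, Mlx from 0.34 to 0.52, -0.04 to 0.13 and 0.35 to 0.42, and Mlxip from -0.11 to 0.05, -0.02 to 0.15 and -0.17 to -0.03.

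DESeq2's Wald test passed Mlx in neither PQ against control (0.43) nor PQ against NAC (0.39), which left 1 of the 6 genes called in PQ against control. With FPKM in limma Arrdc3 did not pass in NAC against control (-0.43 and -0.41 at pseudocounts of 0.1 and 1), which left 1 gene called. The cause was not tested. Mlx in PQ against control ended without control replicate 2, PQ replicate 1 or PQ replicate 2 and in PQ against NAC without any 1 PQ or NAC library, and Arrdc3 in NAC against control without control replicate 1 or NAC replicate 1 and in PQ against NAC without PQ replicate 1 or NAC replicate 1. Txnip in NAC against control passed without control replicate 2. Without 1 library the genes called among the 6 numbered 1 to 2, 1 to 3 and 2 to 4, all genes called 829 to 2181, 1338 to 2157 and 2427 to 4442 (2289, 2294 and 3926 with all libraries), and list genes called 7 to 23, 25 to 39 and 34 to 48. Fewer libraries carry less information.

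Scaling by library size alone turned the split of calls in NAC against control to 1392 higher and 986 lower, from 1108 and 1186, and moved the median log2 fold change by 0.047. No scaling run moved the direction of any of the 5 tested genes. The main fit was not paired, because the labels name no pairing of libraries across groups. The titles number the libraries 8 to 13, and 8 to 10 and 11 to 13 each hold 1 library per group, with nothing to say that they are runs. With these sets as a term, chosen after seeing the data, genes called numbered 1842, 1901 and 3485, the 5 tested genes kept their direction and side of the threshold, and deviations from the group means within a set correlated at -0.07 (PQ and control), -0.11 (NAC and control) and 0.11 (PQ and NAC). Depth limits Mlxipl, at 0 to 5 counts a library.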
